A study of Saccharomyces cerevisiae with 11 samples.

Results

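Nucleosomes over 45 genes of meiosis and spore formation were measured in dividing Saccharomyces cerevisiae, out of 5962 protein-coding open reading frames (ORFs) measured in all. The 45 were a named list of genes known to be off in mitotic growth, and all 45 could be measured. They comprised 3 regulators (IME1, IME2, NDT80), 18 early genes of chromosome pairing and recombination, 20 middle genes of spore construction and 4 late genes of the spore wall. The deposited files held DNA coverage only, so that the silence of these genes is background knowledge and was not measured here. The contrast was a list of 45 genes known for very high transcription in growth, or in galactose for GAL1, GAL7 and GAL10, with TDH3, PMA1 and ribosomal protein genes among the rest. Their transcription was not measured here either.

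Budding yeast enters meiosis only as a diploid that is starved of nitrogen and lacks a fermentable sugar. The activator Ime1 then switches on the early genes, the kinase Ime2 helps to start the programme, and the transcription factor Ndt80 switches on the middle genes. In growing cells the early promoters are held off by Ume6, which brings the Sin3-Rpd3 deacetylase and the Isw2 remodelling complex, and many middle promoters by Sum1 with Rfm1 and Hst1. In haploid cells Rme1 drives a noncoding transcript across the long region upstream of IME1. The strain background, BY4742, is haploid of mating type alpha, so that these cells could not complete the programme. DNA coverage does not show which mating-type genes are used, and the mating type was not checked here.

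Micrococcal nuclease (MNase) cuts DNA between nucleosomes, and the fragments it leaves map the protected DNA. The 11 libraries came from cells grown in synthetic complete medium with galactose, in which Top1 and Top2, the main DNA topoisomerases, both carried an auxin-inducible degron (AID) in every group, controls included. This tag marks a protein for destruction when the plant protein OsTIR1 and auxin are both present. The groups were Top1-AID Top2-AID cells without OsTIR1 and without auxin, cells with OsTIR1 expressed from the ADH1 promoter (pADH1-OsTIR1) and no auxin, and such cells after 60 min in 500 uM auxin. Spheroplasts of fixed cells were digested for 45 min with 0.01171875 U (light) or 0.1875 U (heavy) of MNase. All 11 libraries are labelled galactose, although the design text of the series also mentions raffinose, a sugar that does not induce GAL1, GAL7 and GAL10. No protein level was in the files, so the depletion itself could not be checked here. Nothing in the labels says whether replicates were separate cultures, so p-values cover only the spread between these libraries.

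The label and the file name disagreed for 4 of the 11 libraries. Libraries are called here by the digestion, state and culture letter of their file name. The library named heavy untreated B was labelled low dose, the one named heavy auxin A was labelled low dose, and the one named light auxin B was labelled high dose. The library named light auxin A was labelled untreated and high dose, so its auxin state differed too. By file name, 5 libraries were light (2 without OsTIR1, 1 untreated, 2 with auxin) and 6 were heavy (2 in each state). Mean fragment length was 149.8 to 162.2 bp in the 5 named light and 129.0 to 140.3 bp in the 6 named heavy, with no overlap. Libraries held 9220720 to 31178329 fragments, or a mean of 111.0 to 332.0 fragments over each nuclear base. Values below are relative coverage, the mean fragment coverage of a promoter (the 250 bp upstream of the start codon) or of an ORF divided by the library's nuclear mean without the ribosomal DNA. It has no absolute scale, and a value of 1 is the average of the nuclear genome.

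After heavy digestion, the median meiotic promoter carried more coverage than the median ORF's. The median over the 45 promoters lay between 0.893 and 1.010 in the 6 heavy libraries, against 0.782 to 0.878 for all ORFs and 0.452 to 0.538 for the highly transcribed genes. In each of the 6 libraries the meiotic genes were above all ORFs and the highly transcribed genes below. By their mean over the heavy libraries, 33 of 45 meiotic promoters were above the median ORF and 19 were in the top 25%. Only 4 of 45 highly transcribed promoters were above that median, and 37 were in the lowest 25%. By class, 3 of 3 regulators, 16 of 18 early and 4 of 4 late promoters were above the median ORF. Of the middle promoters 10 of 20 were above it, and their median ran from 0.728 to 0.923 by library, lying below that of all ORFs in heavy auxin A. The medians of 30 further meiotic genes ran from 0.781 to 0.931, also just below all ORFs in that library. After light digestion the order was reversed in each of the 5 libraries. The medians were 1.180 to 1.408 for meiotic promoters, 1.252 to 1.473 for all ORFs and 1.306 to 1.745 for highly transcribed genes.

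The ORF bodies showed the widest contrast after light digestion. The median over the 45 meiotic bodies was 0.975 to 1.088 in the 5 light libraries, against 0.757 to 0.871 for all ORFs and 0.366 to 0.775 for highly transcribed genes. After heavy digestion the meiotic bodies ranged from 1.063 to 1.151, all ORFs from 1.033 to 1.061 and highly transcribed bodies from 0.757 to 1.026. Of the 45 meiotic bodies, 36 exceeded the median ORF after light digestion and 34 after heavy digestion. Of the highly transcribed bodies, 4 and 0 did.

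**Figure D1:**
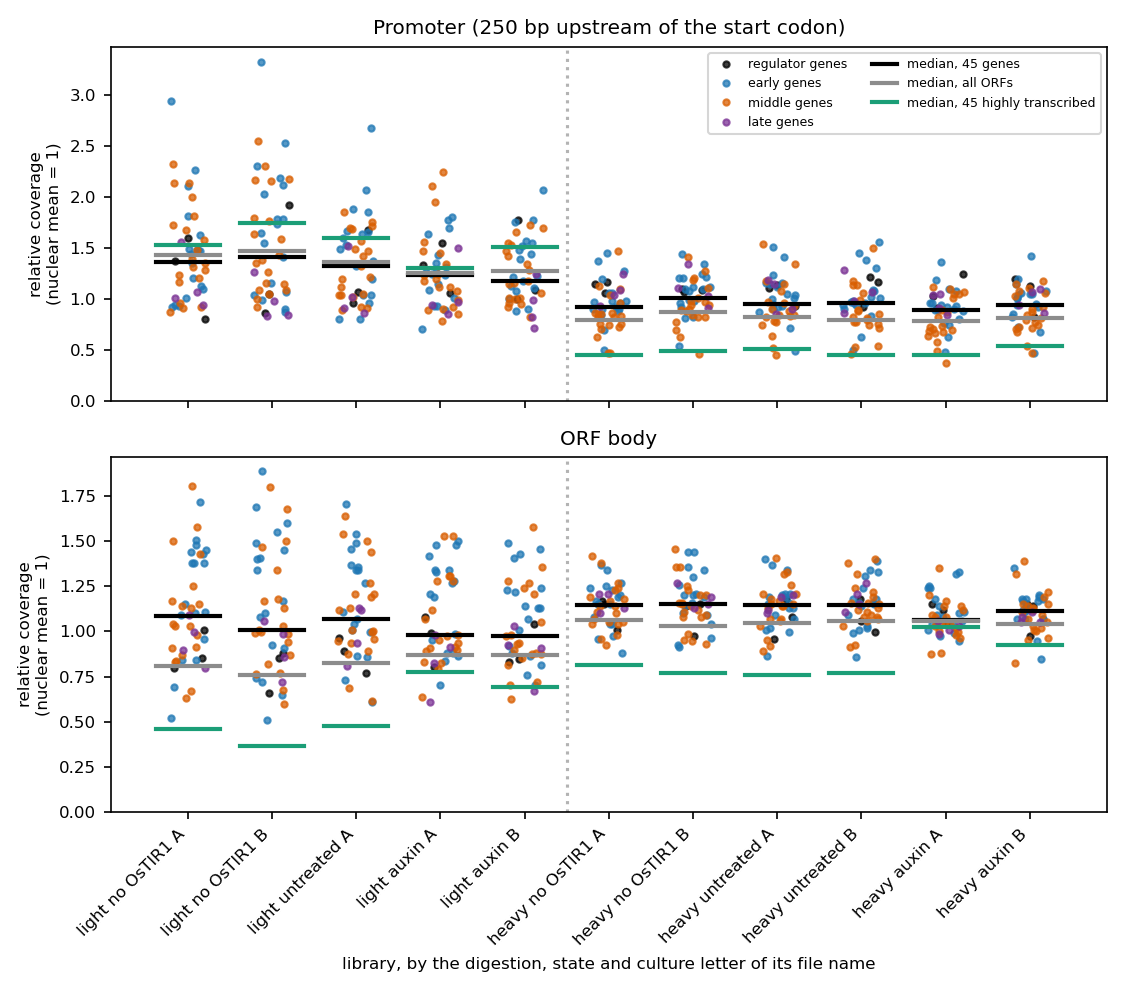
Relative coverage (nuclear mean = 1) of the 45 meiotic promoters (top) and ORF bodies (bottom), a point for each gene coloured by class, in the 11 libraries ordered by digestion and state of the file name. Bars are medians: in heavy libraries the meiotic promoter median (0.893 to 1.010) lies above that of all ORFs and of the highly transcribed genes, and in all libraries the meiotic body median lies highest.

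The dip in front of the start codon was shallow. In the mean profile of the heavy libraries, the lowest point within 250 bp upstream of the start codon was 0.755 to 0.872 for the meiotic genes, 0.559 to 0.634 for all ORFs and 0.206 to 0.301 for the highly transcribed genes. Single genes differed from this mean. After smoothing over 21 bp, the promoter minimum was under 0.5 in all 6 heavy libraries for 27 of 45 meiotic genes (60%). The share was 79.9% of all ORFs and 86.7% of highly transcribed genes. Library by library the shares overlapped, at 71.1 to 91.1% of meiotic genes and 82.6 to 88.6% of all ORFs. The median of these minima was 0.268 to 0.369 over the meiotic genes and 0.0839 to 0.172 over all ORFs. Most meiotic promoters thus held a short stretch of low coverage, at distances from the start codon that differed between genes.

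**Figure D2:**
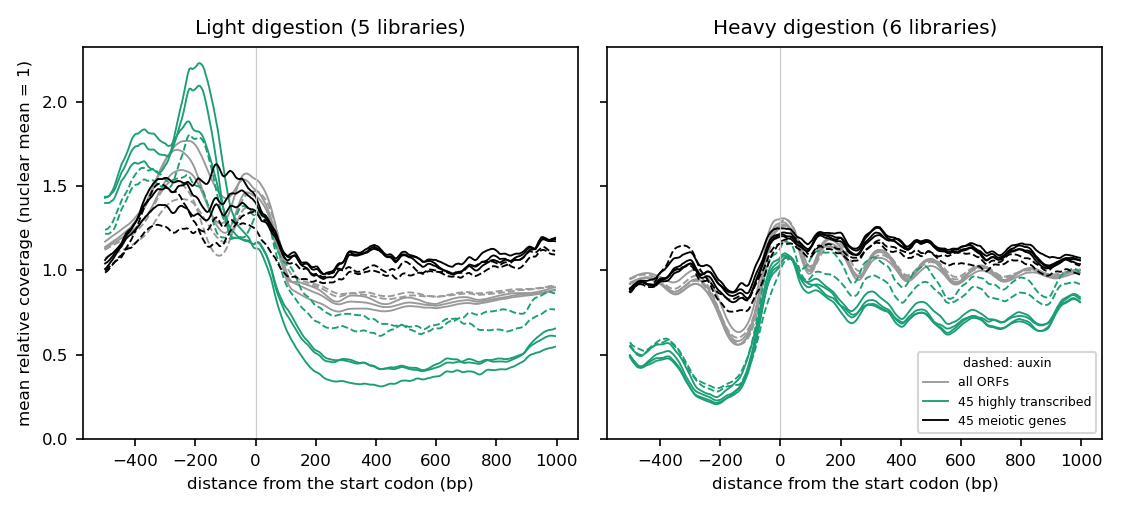
Mean relative coverage (nuclear mean = 1) against distance from the start codon in bp, a line for each library, for the 45 meiotic genes (black), all ORFs (grey) and 45 highly transcribed genes (green); dashed lines are auxin libraries by file name. After heavy digestion the meiotic trough upstream of the start (0.755 to 0.872) is shallower than that of all ORFs (0.559 to 0.634) and of the highly transcribed genes (0.206 to 0.301).

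The deepest dips, ranked by the lowest value in any heavy library, belonged to genes of different steps. AMA1, an activator of the anaphase-promoting complex in meiosis, had minima of 0.00816 to 0.0573 over the 6 heavy libraries. HOP1, a protein of the meiotic chromosome axis, had 0.0106 to 0.0618, at nearly the same base in each. SPS22, a spore wall protein, had 0.0304 to 0.0839, and SMK1, a MAP kinase of spore wall assembly, 0.0357 to 0.0764. By the median over the 6 heavy libraries the order differed. SPO16 (0.0419) was then below HOP1 (0.0453), SPS22 (0.0607) and SMK1 (0.0614), and SPO71 (0.0562) was below SPS22 and SMK1. In 3 of the 45 genes (6.67%) no heavy library dipped under 0.5, close to the 8.25% of all ORFs. These were IME1 (0.601 to 0.791), IME2 (0.763 to 0.857) and MEK1 (0.533 to 0.675), the last a kinase acting at the chromosome axis. The 2 regulators IME1 and IME2 therefore had no gap of that depth within 250 bp. The peak near the start codon fell within 20 bp across all 6 heavy libraries in 11 of 45 meiotic genes (24.4%) and in 26.5% of all ORFs.

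The promoter context of the list was ordinary in orientation and slightly roomier in space. Of the 45 genes, 24 (53.3%) faced a divergent neighbour, against 51.9% of all ORFs, and the median distance to the upstream ORF was 559 bp against 454 bp. The 250 bp promoter overlapped another ORF in 3 of 45 (6.67%), against 17.9% of all ORFs. These were SMK1 (85.6% of the window), SPS4 (32.8%) and SPO21 (18.8%), so the SMK1 promoter values are largely those of a neighbouring reading frame.

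IME1 lies at chrX:604569-605651 on the minus strand of sacCer3, with 2653 bp between its start codon and RPL43B, a divergent ribosomal protein gene. Its promoter had 1.60, 1.92, 1.68, 1.33 and 1.77 in light no OsTIR1 A and B, untreated A and auxin A and B, and from 0.91 to 1.17 with a median of 1.12 in the 6 heavy libraries. Every light value lay above every heavy value. The heavy values had a mean of 1.10 ± 0.0961 (SD, n = 6), which put IME1 at the 87.2nd percentile of all promoters.

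The whole region upstream of IME1 stayed covered until close to RPL43B. In consecutive 250 bp windows going upstream from the start codon, mean heavy coverage was at least 0.798 ± 0.0504 (SD, n = 6) and at most 1.27 ± 0.0551 over the 9 windows up to 2250 bp. The next window, 2250 to 2500 bp upstream of IME1 and on the RPL43B side, had 0.282 ± 0.0446. In light libraries the same window had 1.66 ± 0.345 (SD, n = 5). The mean of this window was thus low only after heavy digestion, and no window on the IME1 side came near it. The gap itself did not follow the window edges. Coverage was under 0.5 in every heavy library from -2570 to -2320 bp relative to the start codon.

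**Figure D3:**
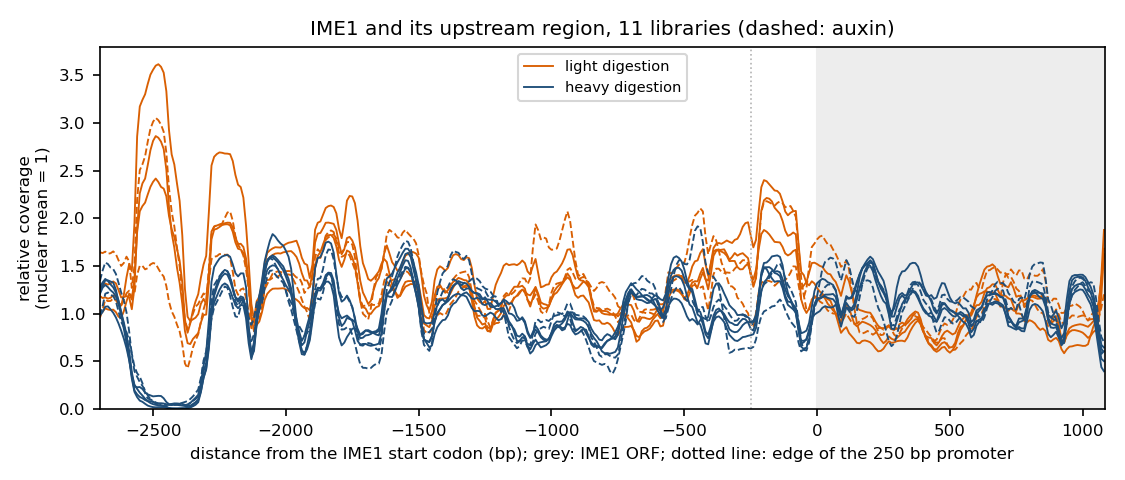
Relative coverage (nuclear mean = 1) against distance from the IME1 start codon in bp, a line for each of the 11 libraries (orange light, blue heavy, dashed auxin); the grey area is the IME1 ORF. In heavy libraries the only broad gap lies near RPL43B, with coverage under 0.5 in every heavy library from -2570 to -2320 bp. The 250 bp window that averages 0.282 (2250 to 2500 bp upstream) holds part of this gap. It also holds a covered stretch, with heavy values of 1.18 to 1.58 at -2250 bp.

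IME2 (chrX:221390-223327, plus strand) had low promoter coverage in light libraries, with 0.802, 0.862, 0.961, 1.06 and 1.09, and 1.03 to 1.22 with a median of 1.15 in heavy ones. The groups overlapped, and the light values were the lower. Further upstream its heavy coverage was lower window by window, from 1.26 ± 0.0291 (SD, n = 6) at 250 to 500 bp to 0.306 ± 0.0628 at 1000 to 1250 bp, toward the divergent neighbour YJL107C at a distance of 1373 bp. NDT80 (chrVIII:356561-358444, plus strand) had 1.37, 1.05, 1.07, 1.55 and 0.997 in light libraries and 0.826 to 1.25 with a median of 1.00 in heavy ones. These overlapped. All 3 regulators were in the top 25% of heavy promoters, by their mean over 6 libraries.

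Early genes ranged widely. SPO11, which cuts DNA to start recombination, had promoter values of 1.48, 1.78, 1.37, 1.64 and 1.48 in light libraries and 0.626 to 0.83 with a median of 0.71 in heavy ones, without overlap. HOP1 had 2.94, 3.32, 2.67, 1.77 and 2.07 against 0.822 to 1.12 with a median of 0.949. It had the highest light promoter of the 45, and both light auxin libraries were below the other 3. SPO13, which sets how chromosomes attach in the first meiotic division, had 1.35, 1.65, 1.60, 1.27 and 1.57 against 1.36 to 1.56 with a median of 1.44. The SPO13 groups overlapped fully, and its heavy promoter was the highest of the 45, at the 99.6th percentile of all ORFs.

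DMC1, the meiotic strand-exchange protein, had 1.63, 1.74, 1.49, 1.24 and 1.23 in light libraries and 0.885 to 1.12 with a median of 1.05 in heavy ones, without overlap. REC8, the meiotic cohesin subunit, had 1.44, 2.03, 1.66, 1.27 and 1.55 against 0.801 to 1.16 with a median of 1.01, also without overlap. ZIP1, of the synaptonemal complex, had 1.21, 1.07, 1.04, 1.25 and 1.08 against 0.906 to 1.08 with a median of 0.944. The ZIP1 groups overlapped. The bodies of these early genes were well covered, with heavy means of 1.34 ± 0.117 (SD, n = 6) for REC8, 1.25 ± 0.0584 for HOP1 and 1.20 ± 0.0344 for DMC1.

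Among middle genes, SMK1 had promoter values of 1.17, 1.35, 1.47, 0.9 and 1.42 in light libraries and 0.38 to 0.472 with a median of 0.465 in heavy ones, the lowest heavy promoter of the 45. The groups were far apart. SPS4 had 0.918, 1.09, 1.04, 0.79 and 1.53 against 0.68 to 0.907 with a median of 0.798, with overlap. SPR3, a septin of the developing spore, had 1.39, 1.64, 1.32, 1.45 and 1.47 against 1.01 to 1.34 with a median of 1.17, also with overlap.

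DIT1 and DIT2, which make the dityrosine of the outer spore wall, share a divergent region of 898 bp, so their promoters are neighbours on the same piece of DNA. DIT1 had 1.07, 0.841, 1.02, 0.85 and 0.99 in light libraries and 0.844 to 1.15 with a median of 1.08 in heavy ones, with overlap. DIT2 had 1.56, 1.27, 1.52, 1.5 and 1.25 against 1.05 to 1.34 with a median of 1.22, with overlap. SPS100, a spore wall protein, had 0.942, 0.839, 0.915, 0.969 and 0.714 against 0.857 to 1.04 with a median of 0.891. All 4 late promoters, SPR1 included, overlapped between digestions.

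How digestion changed coverage was tested in the 7 libraries with the same dose and state in label and file name. These were 2 light and 2 heavy without OsTIR1, 1 light and 1 heavy untreated, and 1 heavy with auxin, which is alone in its state and carries no information on dose. Nearly all promoters of the genome change with digestion, so a count among meiotic genes is to be read against that. Of 45 meiotic promoters, 32 were called at an adjusted p under 0.05, against 86.4% of all 5958 tested. Heavy digestion lowered 30 of the 45 (82.2% of all promoters were called lower) and raised 2 (4.18% called higher). The median log2 change was -0.41 over the meiotic promoters, -0.73 over all promoters and -1.48 over the highly transcribed genes, of which 45 of 45 fell. Of 30 further meiotic genes, 21 fell and 1 rose, with a median of -0.75. Of 8 genes for repressors of meiotic promoters, UME6, SUM1 and ISW2 among them, which growing cells do use, 4 fell and 2 rose, with a median of -0.27.

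The changes differed by class. Of the 20 middle promoters, 18 fell and none rose, with a median log2 change of -0.54. Of the 18 early promoters, 11 fell and 1 rose, with a median of -0.47. Of the 4 late promoters none was called, with a median of 0.03, adjusted p from 0.134 upward and 0 at an unadjusted p under 0.05. With coverage scaled to the median ORF body, 3 of these 4 were called lower (DIT2, SPS100 and SPR1), and DIT1 had -0.179 (adjusted p = 0.186). The regulators split: IME1 fell by 0.58 on the log2 scale (SE 0.111, adjusted p = 2.81e-05), and NDT80 had -0.15 (SE 0.115, adjusted p = 0.216). IME2 rose by 0.33 (SE 0.109, adjusted p = 0.00753), but had -0.032 with coverage scaled to the median ORF body. A test of difference between classes was not made.

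The largest promoter falls were those of HOP1, at -1.47 (SE 0.111, adjusted p = 3.41e-12), SMK1, at -1.34 (SE 0.112, adjusted p = 2.27e-11), and SPS2, a spore wall protein gene, at -1.34 (SE 0.118, adjusted p = 7.02e-11). SPS2 had 2.14, 2.16, 1.49, 2.11 and 1.16 in the 5 light libraries and 0.542 to 0.827 with a median of 0.666 in the heavy ones, without overlap. The rises were those of MEK1, at 0.36 (SE 0.109, adjusted p = 0.00331), and IME2. The MEK1 rise was lost on the scale of the median ORF body, at 0.005 (adjusted p = 0.969), with a 400 bp promoter, at 0.065 (adjusted p = 0.522), and in grouping by label, at 0.085 (adjusted p = 0.824). It was also lost without light untreated A or heavy untreated A, at 0.308 (adjusted p = 0.0555). Both omissions leave only the 4 libraries without OsTIR1 to inform on dose, and those alone gave the same value. MEK1 had 0.92, 0.899, 0.802, 0.71 and 1.00 in light libraries and 0.941 to 1.30 with a median of 1.12 in heavy ones. Only light auxin B lay within the heavy range. These 2 risers are 2 of the 3 promoters in which no heavy library dipped under 0.5. Both measures use the heavy coverage of the same window, so the match is not independent support.

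Over all 11 libraries by file name, every heavy value lay below every light value in 25 of 45 meiotic promoters, against 73.8% of all ORFs. The share was 43 of 45 among highly transcribed genes, 14 of 20 among middle genes, 10 of 18 among early genes and 0 of 4 among late genes. Grouping all 11 libraries by label instead left 0 of 45 promoters and 0 of 45 bodies called, with 0 at an unadjusted p under 0.05. The share of all promoters and bodies called in that grouping is not given here, so the loss is no result about the meiotic genes.

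On the scale of the nuclear mean, more bodies rose than fell. Of 45 meiotic bodies, 31 were called, against 84.4% of 5959 tested. Heavy digestion raised 22 (73.7% of all bodies were called higher) and lowered 9 (10.7% called lower). The median log2 change was 0.13, against 0.36 over all bodies and 0.81 over the highly transcribed genes, of which 41 rose and 3 fell. With coverage scaled to the median ORF body of each library, the median log2 change moved from -0.73 to -1.10 over all promoters and from 0.36 to 0.00 over all bodies. Among the 45 promoters the calls then became 0 higher, against 1.01% of all promoters, and 42 lower, against 93.4%. Among the bodies they became 5 higher, against 36.1% of all bodies, and 35 lower, against 35.8%. The direction for the bodies as a group therefore depends on the scale. On the second scale the median over the meiotic bodies was -0.23.

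On the scale of the nuclear mean, 6 of the 9 bodies that fell were of early genes and 3 of middle genes. REC104 and MEI4, whose products are needed for the DNA breaks made by Spo11, fell by 0.37 (SE 0.0633, adjusted p = 8.97e-04) and 0.46 (SE 0.0701, adjusted p = 4.90e-04) on the log2 scale. DMC1, HOP2, MSH4 and REC114 fell as well, by 0.20 to 0.28. Other early genes did not: SPO11 had -0.04, HOP1 -0.10 and MND1 -0.08, none of them called, while RED1, of the chromosome axis, rose by 0.45 (adjusted p = 6.93e-05). The middle genes were SSP2, which fell by 0.52 (SE 0.0487, adjusted p = 5.19e-05), SPO21 and SPO74. SSP2, an activator of Smk1, had body values of 1.81, 1.80, 1.64, 1.53 and 1.27 in light libraries and 1.04 to 1.25 with a median of 1.16 in heavy ones, without overlap. MEI4 had 1.43, 1.69, 1.34, 1.19 and 1.13 against 0.945 to 1.09 with a median of 1.01, and REC104 had 1.72, 1.89, 1.71, 1.42 and 1.46 against 1.18 to 1.44 with a median of 1.30. MEI4 did not overlap between digestions, and REC104 overlapped at one edge.

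The largest rises were those of REC102, another partner of Spo11, at 0.72 (SE 0.0510, adjusted p = 3.03e-05), SPS100, at 0.57 (SE 0.0539, adjusted p = 5.19e-05), and SPS4, at 0.55 (SE 0.0485, adjusted p = 4.38e-05). REC102 had body values of 0.522, 0.508, 0.606, 0.702 and 0.759 in light libraries and 0.914 to 1.07 with a median of 1.00 in heavy ones. SPS4 had 0.633, 0.598, 0.616, 0.832 and 0.705 against 0.92 to 1.05 with a median of 0.957. Neither overlapped. REC102 and REC104 serve the same step and lay at the 17.3rd and the 97.9th percentile of all bodies after light digestion. All 3 regulator bodies rose, by 0.22 (IME1), 0.39 (IME2) and 0.36 (NDT80), but on the scale of the median ORF body IME1 had -0.139 and the rises of IME2 (0.031, adjusted p = 0.514) and NDT80 (0.011, adjusted p = 0.85) were not called. Across the 45, every heavy body value lay above every light one in 15, against 57.1% of all ORFs.

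**Figure D4:**
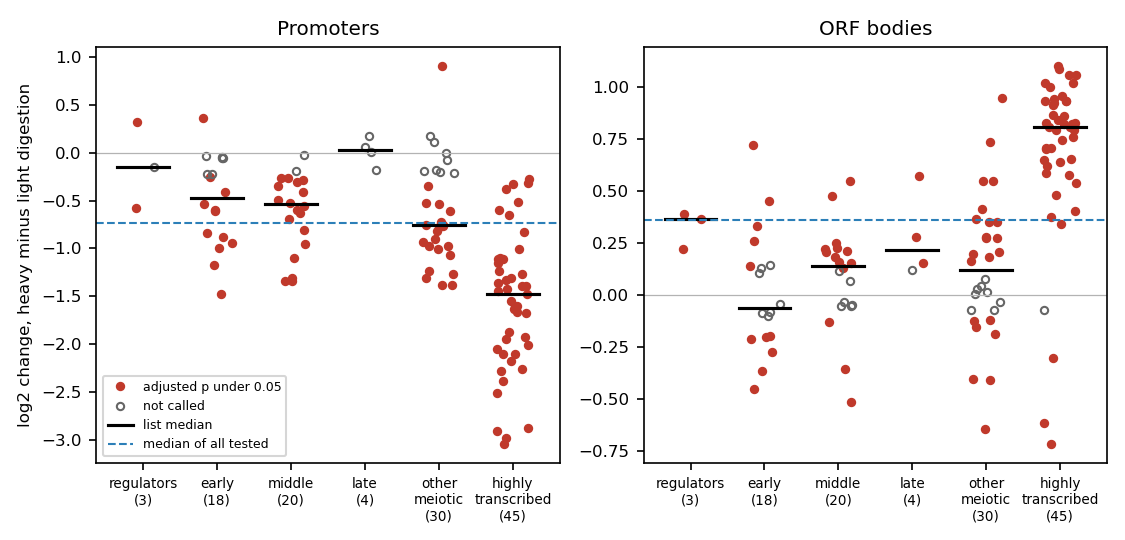
Log2 change of relative coverage, heavy minus light digestion in the 7 libraries of undisputed dose and state, a point for each gene by list (filled: adjusted p under 0.05) for promoters (left) and ORF bodies (right). The meiotic classes lie nearer to 0 than the median of all tested genes (dashed, -0.73 and 0.36) and than the highly transcribed genes (-1.48 and 0.81), by their medians, apart from the regulator bodies.

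Auxin libraries, meant to lack both topoisomerases, were compared with untreated OsTIR1 libraries, over all 11 libraries by file name. No library without OsTIR1 had auxin, so an effect of auxin itself cannot be told apart from loss of Top1 and Top2. No meiotic promoter was called (0 of 45), and the share called among all 5958 promoters was 0%. At an unadjusted p under 0.05 there were 5 of 45 meiotic and 453 of all promoters. The median log2 change was -0.10 over the meiotic promoters and -0.05 over all. The values with the lowest p, HOP2 at -0.43 (SE 0.160) and SPO21 at -0.31 (SE 0.117), both had an adjusted p of 0.606 and did not pass.

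Of the 45 meiotic bodies, 3 were called (6.67%), close to the 7.17% of all 5959 bodies. All 3 fell (1.28% of all bodies were called lower) and none rose (5.89% called higher). They were SPS100, which fell by 0.25 on the log2 scale (SE 0.0513, adjusted p = 0.0224), MND1, which helps Dmc1 and fell by 0.22 (SE 0.0594, adjusted p = 0.0486), and SPO74, of the spore-forming spindle pole body, which fell by 0.20 (SE 0.0504, adjusted p = 0.0451). The median log2 change was -0.07 over the meiotic bodies, with 12 of 45 positive, and 0.01 over all bodies. Over the highly transcribed bodies it was 0.42, with 45 of 45 positive and 26 called higher. Among 30 further meiotic genes none rose and 1 body fell, that of SPS18.

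SPS100 had body values of 1.19 and 1.27 in heavy untreated A and B, and 1.03 and 1.05 in heavy auxin A and B. In light libraries it had 0.807 untreated and 0.611 and 0.672 with auxin, and without OsTIR1 it had 1.21 and 1.19 heavy and 0.80 and 0.718 light. At each digestion both auxin values were the lowest. MND1 had 1.37 and 1.33 heavy untreated against 1.24 and 1.18 with auxin, and 1.46 light untreated against 1.21 and 1.07 with auxin. SPO74 had 1.33 and 1.32 against 1.08 and 1.19, and 1.44 against 1.31 and 1.21. In both genes, too, every auxin value was below every untreated one of the same digestion. The genes were picked by their fall in these same libraries, so this order adds no support.

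**Figure D5:**
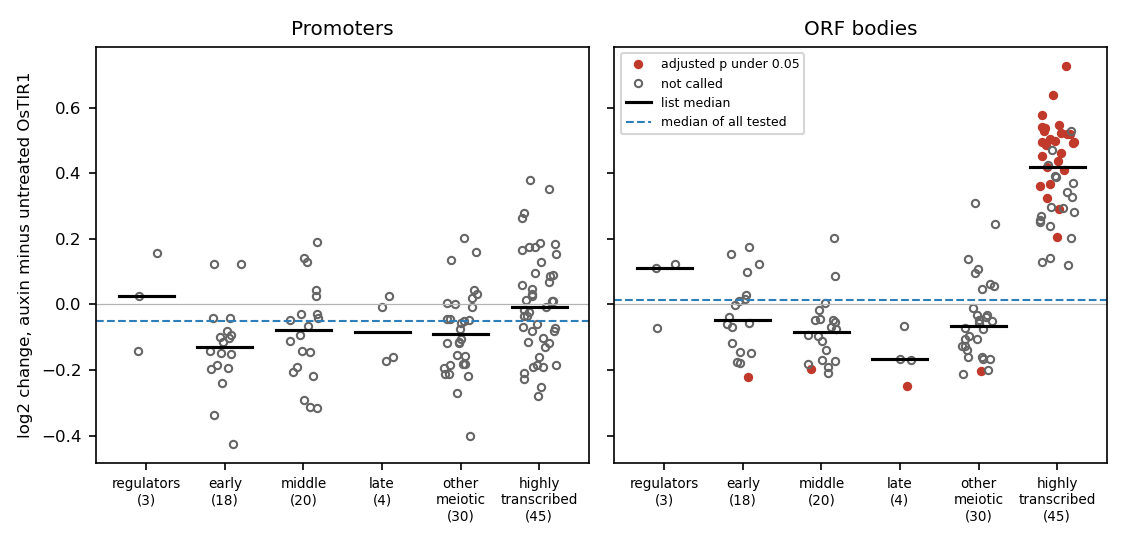
Log2 change of relative coverage, auxin minus untreated OsTIR1 over 11 libraries grouped by file name, a point for each gene by list (filled: adjusted p under 0.05), for promoters (left) and ORF bodies (right). The 3 called meiotic bodies lie between -0.25 and -0.20, while 45 of 45 highly transcribed bodies lie above 0 with a median of 0.42.

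The body calls under auxin rested on few libraries. Without light untreated A, heavy untreated A or heavy untreated B, none of the 45 was called. Leaving out light no OsTIR1 A, heavy no OsTIR1 A or B, or light auxin A or B left 1 call, while 10 were made without light no OsTIR1 B and 7 without heavy auxin B. Grouped by label, 0 were called, and 0 were called with the mean fragment length of each library in place of the dose term. These counts are given without the share of all bodies called at each setting. They show how the calls depend on the setting and are no result about the meiotic genes. No difference of this change between digestions was called for a meiotic gene: with an interaction of auxin and dose, 0 of 45 promoters and 0 of 45 bodies were called, against 0% of all promoters and 0.134% of all bodies. An unadjusted p under 0.05 was reached by 1 and 2 of the 45, and by 322 promoters and 1115 bodies of all tested.

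The list medians were also set against the median ORF body of the same library, as log2 ratios. For the meiotic bodies these log2 ratios were 0.13 and 0.12 in heavy untreated A and B. They were 0.11 and 0.16 in heavy no OsTIR1 A and B, and 0.01 and 0.09 in heavy auxin A and B. For the highly transcribed bodies the log2 ratios were, in the same order, -0.47 and -0.46, -0.38 and -0.42, and -0.04 and -0.17. The distance between the lists was thus smallest in the 2 auxin libraries. Coverage sums to a fixed total in each library, and whether the lower meiotic values and the higher values of transcribed genes are linked through that total was not tested.

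By the median over the 45 genes, nucleosome maps were alike between heavy libraries, with 1 exception. From 250 bp upstream to at most 1000 bp into the ORF, the base-by-base correlation had a median over the 45 genes of 0.906 to 0.963 among the 4 heavy libraries without auxin and 0.864 to 0.932 between these and heavy auxin B. Against heavy auxin A it was 0.752 to 0.776, and 0.812 between the 2 auxin libraries. Over all ORFs heavy auxin A also stood apart, with medians of 0.814 to 0.842. The medians over all ORFs were 0.927 to 0.974 among the 4 heavy libraries without auxin. Between these and heavy auxin B they were 0.905 to 0.946. Single meiotic genes agreed less well than the medians, also in pairs without heavy auxin A. In those pairs 36 to 45 of the 45 genes had a correlation over 0.8, and the lowest gene had 0.366 to 0.808. All ORFs scattered too: 5056 to 5893 of 5960 had a correlation over 0.8 in those pairs, and the lowest had -0.338 to 0.170. These values describe maps that share a gene and not independent points. Without heavy auxin A, 2 meiotic bodies were called under auxin, a count given without the share of all bodies at that setting.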

How the data were processed

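MNase-seq coverage was taken from 11 deposited files, 1 per library. Per the file headers, each file gave for every contig the fragment number and the fragment coverage of each base (a whole-number count, not normalized, of fragments of 95 to 225 bp). The authors also deposited a coverage scaled per contig, which was not used. The submitters' processing notes name Bowtie2 and sacCer3, and the files' contigs have the lengths of the RefSeq R64 assembly used for gene positions. Strand was read from systematic names, and ORFs run from start to stop codon with introns included. Of 6002 nuclear ORFs, 40 were dropped because they lay in the rDNA or less than 1000 bp from the end of a chromosome.

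Coverage was divided by the nuclear mean without rDNA. Log2(relative coverage + 0.1), for features with a mean of at least 0.1, was fitted with limma 3.58.1 in R 4.3.3 across all ORFs, and log2 changes understate changes of low features. The tests were two-sided, with Benjamini-Hochberg adjustment over all promoters or all bodies and a threshold of 0.05. Digestion was fitted with terms for dose and state in 7 libraries, and auxin with terms for state and dose in 11 grouped by file name. The code was tested on simulated data. Libraries of over 9220720 fragments leave little counting error beside the spread between libraries.

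The members, gene lists and tests were chosen with earlier results of these data known. All 45 members could be named. For 15 chosen ones and for the 3 largest called rises and falls of each comparison, each light library's value and the lowest, median and highest of the 6 heavy ones are given for the promoter or body concerned; other values named are those of members at an end of a range. Figures were drawn with matplotlib 3.10.9 in Python 3.11.15. No sequence was read.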

Additional observations from a re-analysis of the deposited data

How the results depend on the processing

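Member counts for digestion over both directions (32 promoters and 31 bodies) stayed within 1.5 times under every alternative but grouping by label, which gave 0 and 0. By direction they did not: scaling by the median ORF body turned 2 higher and 30 lower promoters into 0 and 42, and 22 higher and 9 lower bodies into 5 and 35. Leaving out 1 library at a time gave 28 to 33 promoters and 24 to 32 bodies. With a replicate block on the labels' number the counts were 34 and 31. For auxin, 0 promoters were called under every alternative, with 0 to 0 when 1 library was left out and 0 with either replicate block. The 3 called bodies became 8 with a pseudocount of 1, 1 with 0.01, 6 with scaling by the median ORF body, and 7 with eBayes trend and robust. They became 0 by label, 1 without the library of differing auxin state, 0 with fragment length in place of the dose term, and 0 in the 6 heavy libraries. No count is given for the 7 matching libraries, with 1 auxin library, or for the 5 light ones, with 1 untreated library. Leaving out 1 library gave 0 to 10 bodies (10 without light no OsTIR1 B and 7 without heavy auxin B). A replicate block on the letter of the file name gave 3 and on the labels' number 2. Correlations of same-numbered deviations ran from -0.85 to 0.904 between label groups. Some of these groups mix light and heavy libraries by file name, so the correlations cannot decide whether the numbers pair libraries. By the letter of the file name they ran from -0.257 to 0.521.

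Some called members changed sign, and the cause was not tested. Scaling by the median ORF body gave -0.032 for the IME2 promoter and, for bodies, -0.14 (IME1), -0.15 (SPO71), -0.10 (ZIP1), -0.21 (DIT2), -0.079 (DIT1), -0.21 (SPS2), -0.18 (SPS1), -0.14 (SPO73), -0.23 (SPR3), -0.11 (SSP1), -0.20 (CRR1), -0.14 (SPO20), -0.024 (MER1), -0.15 (GAS4) and -0.23 (MEK1). A 150 bp promoter gave 0.008 for SPO71. Grouping by label gave 0.019 for the SPO74 promoter, 0.027 for the SPS4 promoter and 0.007 for the MSH4 body. Over all alternatives the called digestion promoters kept call and direction in 541 cases and were not called in 67. The bodies kept them in 448, were not called in 67 and were called the other way in 12. The untreated state had only 1 light library, and no library averaged under 111.0 fragments per nuclear base.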
